A study of Mus musculus with 2 samples.

Results

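Fibroblasts build the extracellular matrix, and 37 genes that mark them or encode that matrix were examined in allele-resolved ATAC-seq of mouse embryonic stem cells. The list was given by name, not chosen by a threshold on counts, and spans collagens, basement membrane proteins, matrix glycoproteins, surface proteins, cytoskeletal proteins and mesenchymal transcription factors. Each was located by its gene body in the RefSeq annotation of GRCm38.p6, the assembly that mm10 names. Of these 37 genes, out of 20665 protein-coding genes on chromosomes 1 to 19, 36 overlapped at least 1 window of the table. They lay in 75 distinct windows out of 43941. Thbs1, which encodes the matricellular protein thrombospondin, lies within a single window that is not in the table, and its values were not analysed here.

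The cells were F121-6, a female embryonic stem cell line from a cross of 129 and CAS (castaneus) mice, so that each nucleus carries 1 chromosome set of each strain. They were kept in serum medium with LIF on embryonic fibroblasts (MEFs) whose division had been blocked with mitomycin-C. Both libraries belong to this 1 group (n = 2 replicates), and no library of cells grown without feeders, or of feeders alone, was analysed here. Neither the strain of the feeders nor their removal before 200000 cells were taken for each library is stated in the labels. Separate cultures for the replicates are not stated either, so the spread between them may be technical.

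ATAC-seq uses a transposase to cut and tag accessible DNA. The table gives whole-number counts per 50 kb window, allele and replicate, with values from 0 to 18, and neither the labels nor the header say what exactly was counted. The columns of replicate 1 summed to 44026 on 129 against 46128 on CAS, and those of replicate 2 to 59812 against 59995. A level below is a count of both alleles together unless an allele is named, a pair such as 11 against 13 gives 129 first and CAS second, and a 129 share is the 129 count as a percentage of both. Intervals are exact Clopper-Pearson 95% intervals, which cover counting error only. They are wide for these values, whose variance between alleles was 0.327 (replicate 1) and 0.468 (replicate 2) times the binomial one where a window held 4 or more counts. Fewer fibroblasts in a culture and less accessible DNA per fibroblast cannot be told apart in such bulk libraries.

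Connective tissue fibroblasts secrete fibrillar collagens, which bear tension, and cross-link them. Basement membranes are thin sheets of laminin and collagen IV on which epithelia rest, and cells of the early embryo also make them. Several genes of the list, among them those of vimentin, fibronectin and the laminins, are therefore not particular to fibroblasts, while Thy1, Postn, Twist1, Prrx1 and Col1a1 are the more usual markers of mesenchymal cells. Accessibility at a gene is not its expression.

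The fibroblast and matrix genes had the signal of an ordinary gene. Their windows held 2.64 counts on average in replicate 1 and 3.20 in replicate 2, beside 2.62 and 3.08 in all windows that overlap a coding gene and 2.05 and 2.73 in all windows. The median gene of the list had 2.50 counts per window and replicate (quartiles 1 and 4.25, 36 genes), and the median of all 18577 coding genes with a window was 3.00 (quartiles 1.5 and 5). In this measure 15 members lay above the coding median and 20 below it. Windows without any count made up 14.7% of the member windows (11 of 75) and 19.1% of the coding gene windows.

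Pluripotency genes, the identity markers of embryonic stem cells, stood well above. Over 24 such genes (37 windows) the mean was 8.97 counts per window in replicate 1 and 10.5 in replicate 2, and 0 of their windows were empty. A list of 25 lineage factors of nerve, muscle, blood and endoderm, which act in cell types other than stem cells, had 3.61 and 3.59 counts per window (46 windows). The fibroblast list was thus lower than this list in both replicates, by 0.97 and 0.39 counts per window. Both lists were read in the same 2 libraries, and the difference was not tested.

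**Figure D1:**
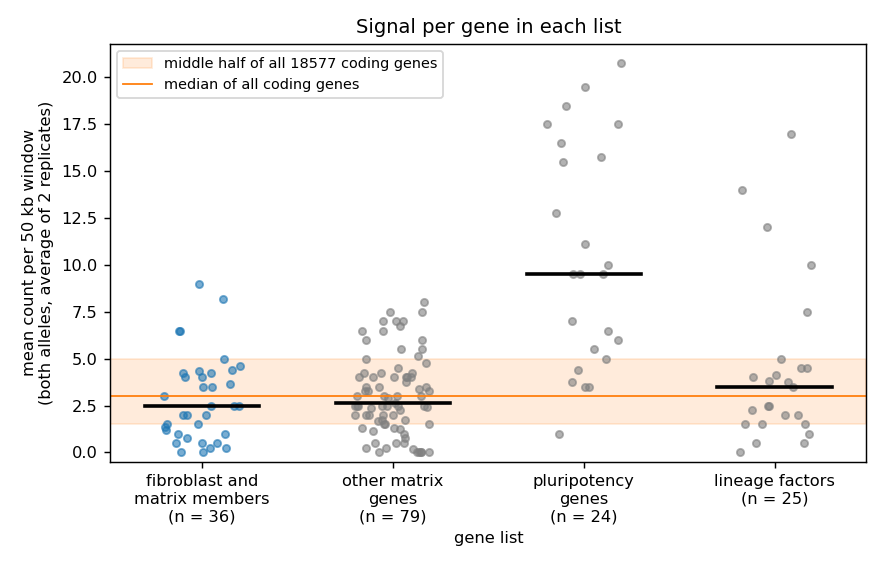
Mean count per 50 kb window of each gene (both alleles, average of the 2 replicates), for 4 gene lists; each point is a gene, the black bar is the list's median, and the orange line and band are the median and middle quartiles of all 18577 coding genes. The fibroblast and matrix genes lie mostly within or below the band, and the median pluripotency gene, at 9.50, lies above all 36 of them.

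Signal differed widely among the markers. Of the 5 more usual markers of mesenchymal cells, Postn lay at the 0 percentile of all coding genes in counts per window, Twist1 at 9.1, Thy1 at 15, Col1a1 at 22.1 and Prrx1 at 47.8. Of the less particular ones named above, Fn1 lay at 92.7, Vim at 84.7, Lama1 at 72.4 and Lamc1 at 60.5. The collagen IV genes Col4a1 and Col4a2 lay at 30.1 and 21.5, and S100a4 at 94. The 5 markers do not stand for all fibroblast genes of the list. Fap (8.25) and Dcn (13.6) were also low. In contrast, Col1a2 and Pdgfra lay at 55.3, Lum at 62.4, Pdgfrb at 67.6 and Lox at 73.8. The 8 members with 2 or fewer counts in all, for which no share over all genes was computed, are described first. Postn, which encodes the matricellular protein periostin, and Col6a3, a chain of collagen VI, had 0 counts on both alleles in both replicates, over 1 and 2 windows. Genes at 0 made up 5.56% of the members with a window, beside 8.09% of all coding genes with a window. Thy1, a surface glycoprotein by which fibroblasts are often sorted, had 1 count on 129 in each replicate and 0 on CAS. Twist1, a transcription factor of mesenchymal cells, had a single count, on 129 in replicate 1, and so did Tagln, a smooth muscle actin-binding protein, in a window that also holds Pcsk7, Rnf214 and Sidt2. Fap, a serine protease of activated fibroblasts, had 1 count, on 129 in replicate 2. Col6a1 and Col6a2, the other chains of collagen VI in the list, had 2 counts and 1 count in all.

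At the other end, 16 members had a summed count of 10 or more over the 4 columns. These were 44.4% of the members with a window, beside 49.4% of all coding genes with a window. S100a4, a calcium-binding protein often used as a fibroblast marker, had 4 counts on each allele in replicate 1 and 6 on 129 against 4 on CAS in replicate 2, the highest level per window in the list. Its window (chromosome 3, 90600001 to 90650000) also holds S100a3, S100a5 and S100a6, which these counts cannot separate from it. Fn1, encoding fibronectin, had 11 counts on 129 against 13 on CAS in replicate 1, and 13 against 12 in replicate 2. Both alleles were high in every column, and each of its 3 windows held 15 or more counts. The first of these windows, with 16 of the 49 counts, also overlaps Atic. Col12a1, a collagen that associates with fibrils, had 10 against 10, then 15 against 17. Vim, the intermediate filament gene of mesenchymal cells, had 3 against 4, then 3 against 3, in its single window, which no other coding gene shares.

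**Figure D2:**
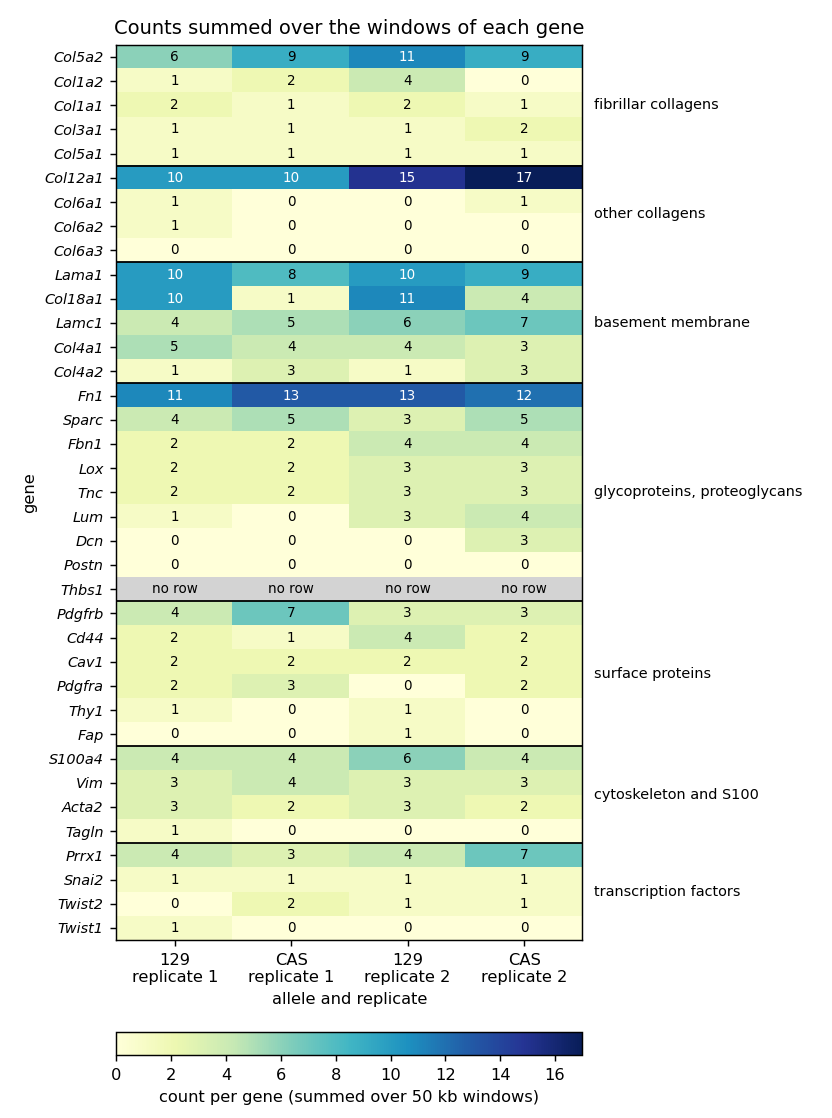
Counts of each of the 37 genes (rows, grouped by role and ordered by total) in each allele and replicate (columns), summed over the gene's 50 kb windows; darker is higher and grey marks Thbs1, whose window is not in the table. Counts are concentrated in a few genes such as Fn1, Col12a1, Lama1 and Col5a2, and Postn and Col6a3 are at 0 throughout.

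Among the fibrillar collagens, signal was uneven. Col1a1 and Col1a2 encode the chains of collagen I, the main product of fibroblasts. Col1a1 had 2 counts on 129 against 1 on CAS in each replicate, and 5 of its 6 counts lay in a window shared with Sgca, Hils1 and Ppp1r9b. Col1a2 had 1 against 2 in replicate 1 and 4 against 0 in replicate 2, so that its direction was opposite in the replicates. Col3a1 had 1 against 1, then 1 against 2. Col5a2, the neighbour of Col3a1 on chromosome 1 and a regulator of fibril width, had 6 against 9, then 11 against 9. Col5a1, encoding its partner chain, had 1 count in each column, all in the window of its start, and 3 further windows at 0. Over the 12 windows of these 5 genes the 129 share was 44.0% in replicate 1 and 59.4% in replicate 2, on either side of an equal split.

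Basement membrane genes had counts on both alleles throughout. Lama1, a laminin chain of early embryonic basement membranes, had 10 counts on 129 against 8 on CAS in replicate 1, and 10 against 9 in replicate 2. Lamc1, the laminin chain shared by most laminins, had 4 against 5, then 6 against 7, higher on CAS in both replicates by 1 count. Col4a1 and Col4a2 encode the main chains of collagen IV and start beside each other on chromosome 8, head to head within 1 shared window. Col4a1 had 5 counts on 129 against 4 on CAS, then 4 against 3. Col4a2 had 1 against 3 in each replicate. This pair therefore pointed to opposite alleles, by 1 or 2 counts, and 5 counts of each gene are those of the shared window.

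Among the matrix glycoproteins and proteoglycans, 3 genes with counts were equal on the alleles in both replicates and 1 was higher on CAS in both replicates. That one was Sparc, a collagen-binding glycoprotein, with 4 counts on 129 against 5 on CAS in replicate 1, and 3 against 5 in replicate 2, and its start window also holds Atox1. Fbn1 (fibrillin, the core of microfibrils), Tnc (tenascin C) and Lox, which cross-links collagen and elastin, were equal on the alleles in both replicates, with 2 counts per allele in replicate 1 for each. In replicate 2 Fbn1 had 4 per allele, and Tnc and Lox had 3. The small proteoglycan genes Dcn (decorin) and Lum (lumican), neighbours on chromosome 10 that regulate fibril assembly, had most of their counts in replicate 2. Dcn had 0 counts in replicate 1, and 0 on 129 against 3 on CAS in replicate 2. Lum had 1 against 0, then 3 against 4.

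Surface proteins other than Thy1 and Fap had low to middling counts. Pdgfra, the receptor by which many mesenchymal progenitors are identified, had 2 counts on 129 against 3 on CAS in replicate 1, and 0 against 2 in replicate 2. Pdgfrb, its relative on pericytes and fibroblasts, had 4 against 7, then 3 against 3, and 11 of these 17 counts fell in a window shared with Cdx1 and Slc6a7. Cd44, the hyaluronan receptor, had 2 against 1, then 4 against 2. Cav1, a coat protein of caveolae, had 2 in every column. Among the cytoskeletal genes, Acta2, the smooth muscle actin of myofibroblasts, had 3 against 2 in each replicate, in windows shared with Fas and Stambpl1.

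Of the mesenchymal transcription factors, Prrx1 was the strongest, with 4 counts on 129 against 3 on CAS in replicate 1, and 4 against 7 in replicate 2. Twist2 had 0 against 2, then 1 against 1. Snai2, a repressor active in epithelial to mesenchymal transition, had 1 count in each column. Together these 4 genes held 12 counts in replicate 1 and 15 in replicate 2 over 6 windows, or 2.00 and 2.50 per window, the lowest and the second lowest of the 7 role groups in those replicates.

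Counts were compared between the window of a gene's start and its other windows. A start was taken from the RefSeq promoter table, which matched 22 of the 37 genes. Of the 21 members with 2 or more windows, 11 were matched and had a count, and among these 11 the start window held more counts than any other window in 10 members, against 53.7% of 6482 coding genes of that kind. The other was Col4a1, with 5 of 16 counts in the window of its start, as many as in the neighbouring one. Prrx1 had 15 of its 18 counts in the start window, Tnc 9 of 10, Fbn1 9 of 12 and Col18a1 22 of 26. The 10 also include Col6a2, with 1 count in all, Col5a1, with 4, and Col4a2, whose start window is that of Col4a1. Fn1, Col12a1, Lama1 and Col5a2, the members with the most counts, were not matched, and their highest window held 18 of 49, 25 of 52, 17 of 37 and 16 of 35 counts. The 11 members spanned more windows than the other genes of that kind (median 3 against 2), and several start windows also hold a neighbouring gene, such as Cep152 at Fbn1. Over the 26 distinct start windows of the 27 members whose start window is known, the mean was 3.19 counts in replicate 1 and 3.62 in replicate 2. The same mean over all coding genes was 3.63 and 3.82, and over pluripotency genes 10.2 and 11.8.

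The 250 bases before the start are shown for 6 members that span the range of start-window counts, from 0 in Postn and Col6a3 and 1 in Twist1 to 13 in Vim, 15 in Prrx1 and 22 in Col18a1. They are RefSeq sequences (GRCm38.p6), written 5′ to 3′ on the gene's strand and ending at the base before the start in the promoter table. For Prrx1 and Col6a3 the annotated gene body reaches beyond that start, to 163315145 and 90844001. The Prrx1 stretch thus lies wholly inside the body, and the Col6a3 stretch in part. Capitals mark CpG dinucleotides, which gather at the promoters of many widely used genes. A 50 kb window is far wider than a promoter, so the counts cannot be placed on these bases.
Col18a1 (chr10:77166531-77166780, minus strand): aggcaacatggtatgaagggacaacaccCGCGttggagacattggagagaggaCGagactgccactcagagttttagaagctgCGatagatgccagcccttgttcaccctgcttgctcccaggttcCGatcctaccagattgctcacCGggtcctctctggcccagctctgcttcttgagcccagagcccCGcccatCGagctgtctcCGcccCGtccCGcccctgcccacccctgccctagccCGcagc
Prrx1 (chr1:163313651-163313900, minus strand): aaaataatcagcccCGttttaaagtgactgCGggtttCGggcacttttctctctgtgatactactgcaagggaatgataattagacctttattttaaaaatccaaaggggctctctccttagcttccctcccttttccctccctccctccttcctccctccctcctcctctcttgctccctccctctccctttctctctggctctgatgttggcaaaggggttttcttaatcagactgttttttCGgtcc
Vim (chr2:13574061-13574310, plus strand): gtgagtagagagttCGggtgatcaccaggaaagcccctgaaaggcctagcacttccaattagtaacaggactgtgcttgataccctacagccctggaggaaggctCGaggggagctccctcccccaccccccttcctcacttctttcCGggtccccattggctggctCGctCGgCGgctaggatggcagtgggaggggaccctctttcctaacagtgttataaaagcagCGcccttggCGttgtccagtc
Postn (chr3:54359017-54359266, plus strand): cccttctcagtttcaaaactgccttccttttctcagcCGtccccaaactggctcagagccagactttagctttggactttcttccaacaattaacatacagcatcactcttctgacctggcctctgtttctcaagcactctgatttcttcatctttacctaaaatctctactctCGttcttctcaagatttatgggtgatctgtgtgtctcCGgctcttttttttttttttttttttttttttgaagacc
Col6a3 (chr1:90843972-90844221, minus strand): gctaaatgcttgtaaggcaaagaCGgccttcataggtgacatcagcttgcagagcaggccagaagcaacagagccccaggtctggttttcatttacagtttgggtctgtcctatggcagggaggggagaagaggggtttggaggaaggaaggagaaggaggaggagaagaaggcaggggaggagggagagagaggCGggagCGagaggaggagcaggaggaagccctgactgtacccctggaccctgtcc
Twist1 (chr12:33957421-33957670, plus strand): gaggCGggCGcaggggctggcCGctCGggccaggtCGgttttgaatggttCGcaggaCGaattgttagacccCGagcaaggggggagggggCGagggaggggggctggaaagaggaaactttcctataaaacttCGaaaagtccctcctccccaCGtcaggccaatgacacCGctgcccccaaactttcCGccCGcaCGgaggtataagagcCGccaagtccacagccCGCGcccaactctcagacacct

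CpG content did not order the start windows of these genes. Twist1 had 18 CpG and 1 count, and Prrx1 had 4 CpG and 15 counts. Over the 22 matched members, the 5 with 15 or more CpG (Col5a1, Col4a1, Col4a2, Twist1 and Twist2) had a median of 4.0 counts in the start window over the 4 columns. The 8 with 5 to 14 CpG had 8.5, and the 9 with fewer than 5 had 6.0. Over all 14558 coding promoters whose start window is in the table, those medians were 8.0, 8.0 and 4.0. The group rich in CpG is thus lower than its counterpart over all genes, with only 5 genes in it, of which Col4a1 and Col4a2 share a window. The letters TATAAA, read on both strands, occurred in these 250 bases in 6 of the 22 members (Col3a1, Tnc, Cav1, Vim, S100a4 and Twist1), against 11.8% of all coding promoters. That background depends on CpG: it was 25% with fewer than 5 CpG, 9.37% with 5 to 14 and 3.39% with 15 or more. The members had 2 of 9, 3 of 8 and 1 of 5 in these classes. TGANTCA, the AP-1 motif, whose reverse complement is the same, occurred in 1, Col6a1, against 6.11% of all. The CArG box, read by serum response factor, was in 0 of 22, against 1.24%. These are matches of letters, not sites of binding.

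The series asks where the alleles differ. Across all member windows the 129 share was 51.5% of 198 counts in replicate 1 (interval 44.3 to 58.7%). In replicate 2 it was 51.25% of 240 counts (44.7 to 57.7%), and the mean was 51.4% ± 0.187 (SD, n = 2). Over all windows it was 48.8% and 49.9%, values inside both intervals. Without Col18a1, left out because it had the widest gap in these same counts, the member share was 49.2% and 49.8%. Leaving out such a gene lowers the share by construction.

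Gene by gene, 129 was higher in both replicates in 7 of 34 members with a count (Col1a1, Col4a1, Col18a1, Lama1, Thy1, Cd44 and Acta2), or 20.6%, beside 14.5% of all coding genes with a count. CAS was higher in both in 4 members (Col4a2, Lamc1, Sparc and Pdgfra), or 11.8%, beside 15.5%. The other 23 were equal in at least 1 replicate or opposite. Both 129 values lay above both CAS values in 5 members (Col1a1, Col18a1, Lama1, Thy1 and Acta2), beside 9.31% of all coding genes with a count. The reverse held in 2 (Col4a2 and Sparc), beside 9.38%. These counts are near the background, and apart from Col18a1 the gaps in each replicate were of 1 or 2 counts.

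**Figure D3:**
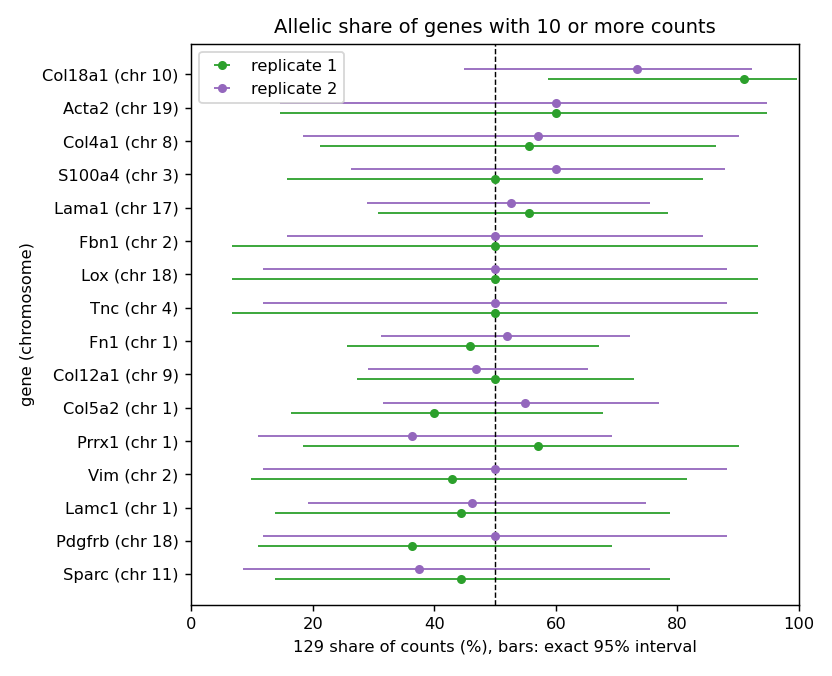
The 129 share of the 16 members with a summed count of 10 or more (horizontal axis, percent), with replicate 1 in green, replicate 2 in purple and exact 95% intervals as bars; the dashed line is an equal split. The interval of Col18a1 in replicate 1 (58.7 to 99.8%) lies above 50%, and all other intervals include it.

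Col18a1 was the member with the widest gap between the alleles. It encodes collagen XVIII, a basement membrane proteoglycan from which the fragment endostatin is cut, and lies on chromosome 10 from 77052178 to 77166530, in 3 windows. It had 10 counts on 129 against 1 on CAS in replicate 1, and 11 against 4 in replicate 2, a 129 share of 90.9% and 73.3%. In both replicates 129 was the higher allele, and the replicates' 129 values did not overlap the CAS values. Most of this lay in the window of its start (77150001 to 77200000), which no other coding gene overlaps, with 9 against 1, then 9 against 3. The next window before the start, which overlaps no coding gene, had 3 against 0, then 4 against 0. Within 400 kb on both sides the 129 share was 66.7% (12 of 18 counts) in replicate 1 and 60.0% (12 of 20) in replicate 2. Of those 12 counts on 129 in each replicate, the window before the start gave 3 and 4. Chromosome 10 as a whole had 59.8% and 55.6%.

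**Figure D4:**
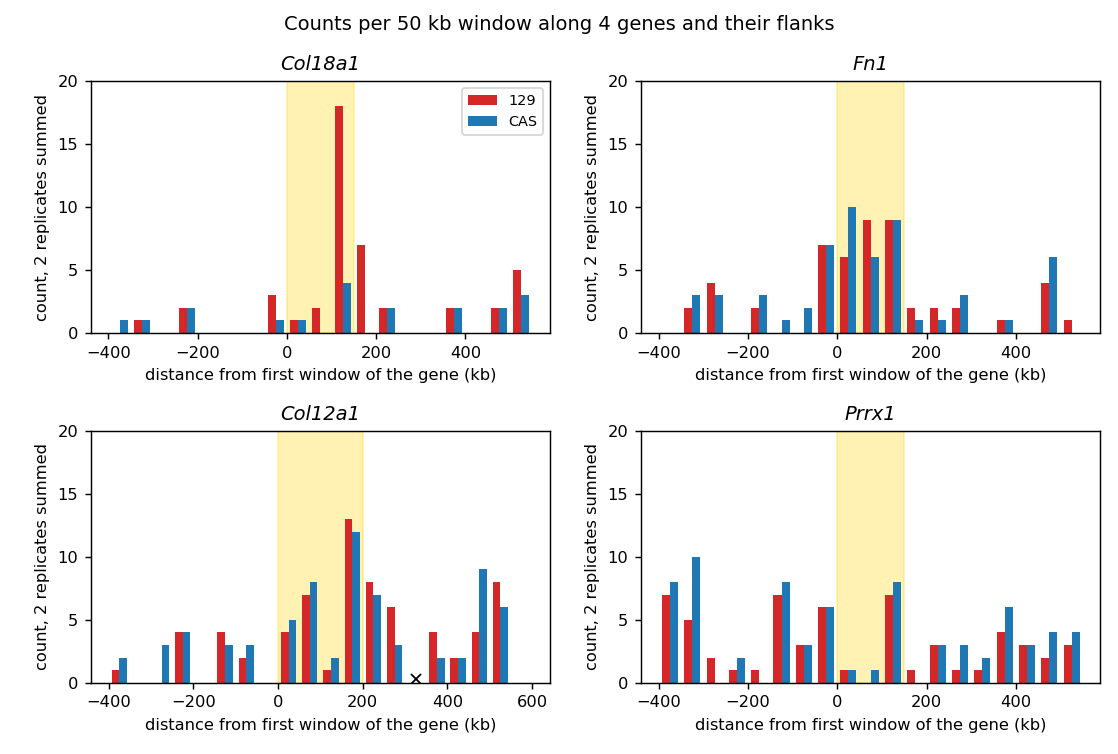
Counts per 50 kb window (vertical axis, 2 replicates summed) on 129 (red) and CAS (blue) along 4 members and 400 kb on both sides; the horizontal axis is the distance from the first window of the gene in kb, yellow marks the windows of the gene and a cross marks a window not in the table. Col18a1 has 18 counts on 129 and 4 on CAS in its start window, while Fn1, Col12a1 and Prrx1 have similar counts on both alleles.

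No member passed a test across all genes. edgeR's quasi-likelihood test was run on 9171 coding genes with a summed count of 10 or more, among them 16 members, and called 0 genes at a Benjamini-Hochberg adjusted p of 0.05 (0% of those tested). At an unadjusted p under 0.05 it found 127 genes (1.38%), of which 1 was a member, and the DESeq2 Wald test found 7 and called 0. That member was Col18a1, with a log2 difference of 2.03 (129 over CAS, SE 0.42, adjusted p = 0.988, edgeR). With the level of each chromosome taken out, its log2 difference was 1.60 (adjusted p = 0.998, edgeR). The other 15 tested members lay between -0.49 (Pdgfrb and Sparc) and 0.57 (Acta2). The median log2 difference of the 16 members was -0.01, beside 0.01 over all genes tested. In data simulated from these genes, the same test recovered 55% of 4-fold changes and 2% of 2-fold changes, so differences of the latter size were mostly not detectable at this depth. The simulated counts were Poisson and so noisier between alleles than the real ones. The altered genes were drawn only from those at or above the median count of the genes tested. Recovery in genes below that median was therefore not measured.

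Single windows gave the same count. Of the 75 member windows, 64 had a count and were tested among 34417 windows, and edgeR called 0 of them (0% of all windows tested; 2.64% at an unadjusted p under 0.05). Below that unadjusted threshold were 2 member windows, the start window of Col18a1 and a window inside Col4a1 (chromosome 8, 11200001 to 11250000; 2 counts on 129 against 0 on CAS, then 1 against 0). Both had an adjusted p of 0.999 (edgeR).

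Member windows held a small part of all counts in each replicate. This part was 0.220% in replicate 1 (interval 0.190 to 0.252%). In replicate 2 it was 0.200% (0.176 to 0.227%), and the intervals overlap. Replicate 2 held 1.21 times the counts of replicate 1 in member windows, 1.18 times in all coding gene windows and 1.33 times in the whole table. The libraries also differed in where their counts lay. Coding gene windows held 73.8% of all counts in replicate 1 and 65.3% in replicate 2, and windows without a coding gene 26.2% and 34.7%. How far this moved the part in member windows was not tested. Of the 34 members with a count, 17 were higher in replicate 2, 8 lower and 9 equal. The largest differences were in Col12a1, with 20 counts in replicate 1 and 32 in replicate 2, and Lum, with 1 and 7. On the other side were Pdgfrb, with 11 and 6, and Pdgfra, with 5 and 2.

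Against their own surroundings, 21 of 36 members (58.3%) had a higher mean count per window than the windows within 400 kb on both sides, as did 56.3% of 18568 coding genes. Fn1, whose first window is shared with Atic, stood out from its flanks, with 8.17 counts per window and replicate against 1.81. Col6a3 and Postn, at 0, lay in flanks with 1.63 and 1.22, so the surrounding windows did hold counts. Fbn1 was lower than its flanks (1.20 against 4.63), and 2 of its 5 windows were at 0.

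Other matrix genes were examined as a list of 83 that shares no gene with the 37. It covers further collagens, laminins, nidogens, cross-linking enzymes, proteases, integrins and mesenchymal factors, and 79 had a window. The median gene had 2.63 counts per window and replicate, and 21.3% of the list's windows were at 0. The 129 share over its windows was 49.1% in replicate 1 and 49.0% in replicate 2, below that of the 37 genes in both, a difference that was not tested. Of 40 tested with edgeR, 0 were called in either direction, and 1 had an unadjusted p under 0.05. In both replicates 129 was the higher allele in 13 (17.8%) and CAS in 15 (20.5%) of the 73 that had any count. A gap of 3 or more counts in both replicates, found in 1.25% (129) and 1.48% (CAS) of all coding genes with a count, was seen in 3 of them. Lama2, a laminin chain of muscle on chromosome 10, had 8 counts on 129 against 5 on CAS, then 14 against 9. Nid1, which links laminin to collagen IV, had 7 against 3, then 6 against 2. Plod2, a lysyl hydroxylase of collagen, had 4 against 9, then 7 against 16, the only one of the 3 that was higher on CAS. Among the 37, Col18a1 alone had a gap of that size.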

How the data were processed

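Allele-resolved ATAC-seq counts of 2 replicates of 1 group were used, from 4 columns of 1 deposited table (0 further per-sample columns). The deposited values are counts per 50 kb window with no visible normalization, per the file headers and the values themselves. Bowtie2, MACS2, SAMtools and bedtools and the mm10 build are named, without versions or roles, per the submitters' processing notes. Read length was 100 bp paired-end, per the labels. The assignment to alleles, the thing counted and the choice of windows are not stated in the labels or the header.

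Windows were assigned to a RefSeq protein-coding gene (GRCm38.p6) by any shared base, and coordinates are 1-based. Counts were summed over a gene's windows and tested with edgeR 4.0.16 in R 4.3.3 (quasi-likelihood test, TMM scaling, Benjamini-Hochberg adjustment, threshold 0.05) on genes with a summed count of 10 or more and on windows with 1 or more. An SE was derived from the log2 difference and its F statistic and does not measure the spread between replicates. DESeq2 1.42.0 was an alternative. The fits were tested on simulated data with 200 altered genes, drawn from those at or above the median count. Both alleles were read from the same library in each replicate, which pairs them, and their deviations correlated at r = 0.252 over 34417 windows. The main fit held allele only, without a replicate term, and so left this pairing out. A fit with the replicate as a block was an alternative. Log2 ratios outside edgeR used a pseudocount of 0.5. All 37 genes were accounted for. Values in every column are given for those with a summed count of 10 or more, those at 0 and those with the same allele higher in both replicates, and of the other matrix genes for those with a gap of 3 or more. The members, gene lists and tests were chosen with earlier results of these data known, and motifs, flanks and CpG classes after the counts were seen.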

Additional observations from a re-analysis of the deposited data

How the results depend on the processing

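In no alternative fit was a member gene or member window called: 0 genes and 0 windows with the replicate as a block, and 0 with DESeq2 size factors, the DESeq2 Wald test, other filters, an adjusted p threshold of 0.1 or, for genes, column totals, the start window alone, 50 kb added on both sides or the chromosome level taken out. Among all genes the block called 1 gene against 0 without it (Dlg2, not a member), and a filter at a summed count of 10 called 2 windows against 0. The block recovered 0% of simulated 4-fold changes, so its count of 0 says little. Without a replicate no residual degrees of freedom remain, so those fits give values only. The log2 difference of Col18a1 ranged from 1.60 to 2.34 over 9 fits (adjusted p 0.983 to 1.00) and, as a single ratio, was 2.81 without replicate 2 and 1.35 without replicate 1. The mean 129 share of the members was 54.3% in start windows, 52.6% in windows without another coding gene, 50% as a median over genes, 49.5% without Col18a1 and 49.4% without the 5 members with the highest totals; the last pair of alternatives was chosen after seeing the data. The median log2 ratio was 0.020 with 50 kb added and 0 otherwise. The mean count per member window was 3.40 in start windows and 2.10 without those 5 members, and the start window mean was 2.28 with both neighbours. The part of all counts was 0.0853% in start windows, 0.351% with 50 kb added and 0.163% in windows without another coding gene, because these cover other numbers of windows. Members with the same allele higher were 11 (7 on 129 and 4 on CAS). They were 4 in start windows (3 and 1) and 9 in windows without another coding gene (6 and 3). With 50 kb added they were 9 (4 and 5), so the lean to 129 did not hold there. With 1 replicate left out (replicates 1 and 2) they were 22 and 23. Most members hold fewer than 10 counts, so single gaps of 1 or 2 counts carry little weight. The exact intervals of members with such gaps include an equal split, but these intervals are wide for these values.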
